A study of Mus musculus with 2 samples.

Results

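Isolated regions are the autosomal regions of a mouse DNA methylation table that have 2 or fewer other listed regions nearby, counted as starts within 500 kb of their own start on the same chromosome. They were found by their positions among the listed regions. Of the 23339 autosomal regions 946 (4.05%) met the rule, of 23946 regions listed in all. How regions came to be listed is not known here, so spacing and counts may be linked, which was not tested. The other 22393 autosomal regions serve as the comparison. The table compares 2 libraries of tet-Zscan4c cells, which are embryonic stem (ES) cells of the strain MC1 (129S6/SvEvTac) with a Flag-tagged Zscan4 under doxycycline control. Both were grown without feeders, on gelatin and with leukemia inhibitory factor. One library (Zscan4 induced) came from cells kept without doxycycline, which switches the transgene on. The other (Zscan4 repressed) came from cells in 1.5 µg/ml doxycycline. There is 1 library per condition, so no value below has a replicate check, and doxycycline and the transgene cannot be told apart.

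Both libraries were made by methylated DNA immunoprecipitation (MeDIP), in which an antibody against 5-methylcytosine (5mC) pulls down single-stranded fragments that are then sequenced. In mammals 5mC lies mostly at CpG dinucleotides, which are scarce and uneven along the genome, and most CpGs outside CpG islands are methylated in ES cells. A low MeDIP count can therefore come, among other things, from few CpGs or from little methylation, and these cannot be told apart here. Neither library is an input made without the antibody, so differences in how well regions are sampled and read are not removed. Zscan4 proteins are zinc-finger proteins of the 2-cell embryo that also appear briefly in a small share of ES cells, where they are known for a role in telomere maintenance. The regions are named by their identifier and their mm9 position. No gene, exon or intron is assigned and no sequence is shown, because the gene tables used here are of another build.

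Sampling was sparse. Over all listed regions the counts summed to 51169 (induced) and 70219 (repressed), of which 1181 and 1644 fell in isolated regions. The scaled counts below set the totals of both libraries equal, over the 23932 regions to which the authors gave an adjusted value. Of the isolated regions 945 are among these, and the remaining one, R01408, is described separately. All intervals are 95% intervals and cover counting error only. They may be too narrow because reads amplified without molecular identifiers are not independent molecules. Intervals of counts summed over regions also leave out the spread between regions.

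Isolated regions lay on every autosome, with the larger shares on autosomes that hold few listed regions per Mb. Their share was highest on chromosome 1 (100 of 1408 regions, 7.10%) and chromosome 14 (62 of 905, 6.85%). It was lowest on chromosome 11 (31 of 1795, 1.73%) and chromosome 19 (17 of 749, 2.27%). Chromosome 1 held 7.26 listed regions per Mb and chromosome 11 held 15.1. Across the 19 autosomes the share fell as this density rose, with a Spearman rho of -0.88, where both measures count the same regions. Per 10 Mb of chromosome there were between 2.61 isolated regions, on chromosome 11, and 5.22, on chromosome 14.

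**Figure D1:**
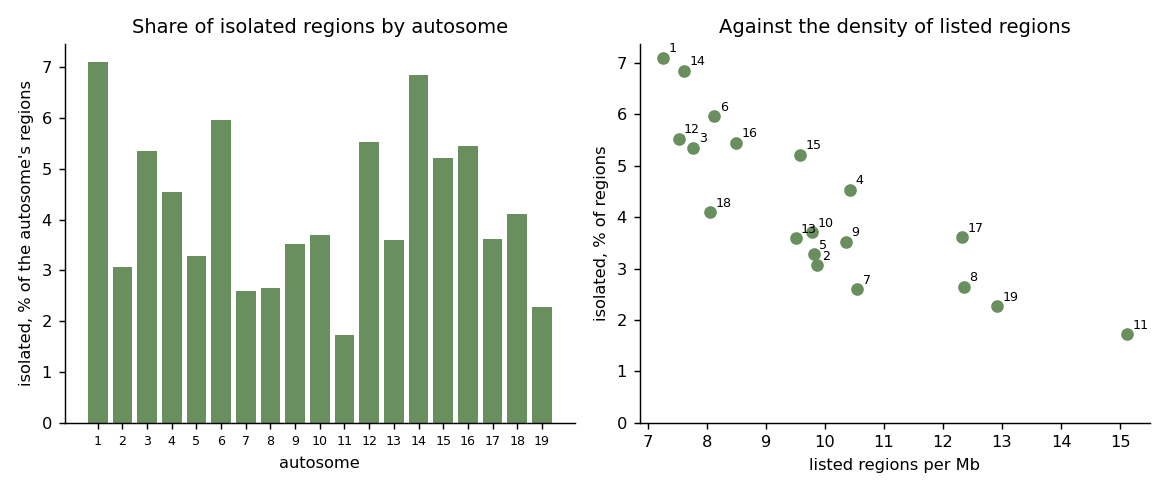
Left, the percentage of each autosome's listed regions that are isolated (bars, 1 per autosome). Right, the same percentage against the number of listed regions per Mb, each point labelled with its autosome; chromosome 1 is at 7.10% and chromosome 11 at 1.73%.

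Along the chromosomes the isolated regions favoured the middle. With each chromosome divided into 5 equal parts between its outermost listed regions, the first part held 17.0% of the isolated and 20.8% of the other regions, and the last part 14.9% and 24.7%. The central part held 23.8% of the isolated and 17.7% of the other regions. The last 3 Mb before an outermost region held 27 members (2.85%), against 6.23% of the others. The window of 11 isolated regions (1.16%) ran past the outermost listed start, as did that of 304 other regions (1.36%). Such windows cover less of the listed span, and whether this made any region a member was not tested.

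Few neighbours did not always mean a distant nearest neighbour. Of the members, 183 had no other region within 500 kb, 316 had 1 and 447 had 2. The distance to the nearest listed start had a median of 164 kb, with quartiles of 52.3 and 427 kb, against a median of 10.6 kb among the other regions. The nearest start was under 50 kb away for 229 members (24.2%). When starts no more than 500 kb apart were joined into stretches, 597 members lay in stretches made of isolated regions alone. These were the 183 single regions, 96 pairs, 70 triplets and 3 groups of 4. The remaining 349 members stood in stretches that also hold regions outside the rule. Gaps of over 500 kb between consecutive starts numbered 1038 and took up 44.2% of the 2408 Mb between the outermost regions. The longest of them measured 7705 kb.

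In length the isolated regions resembled the rest. Their median was 1139 bp, with quartiles of 1000 and 1653 bp, and the others had a median of 1110 bp with quartiles of 1000 and 1666 bp. A length of exactly 1000 bp was found in 398 of the 945 scaled members (42.1%) and in 44.4% of the others. A length of 2000 bp or more was found in 4.87% and 4.80%. The longest member measured 3258 bp and the longest other region 7077 bp. The median was longer in the isolated regions on 10 of the 19 autosomes. Overlap with another listed region was found in 18 members (1.90%) and in 4.43% of the others. An overlapping region counts as a neighbour, so the rule itself limits overlap. All 18 were among the 446 scaled members with 2 neighbours (4.04% of them).

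The MeDIP signal was lower in the isolated regions, by a similar factor in both libraries. In the induced library the scaled members held 1065 raw counts over 1257 kb, which is 0.847 counts per kb (exact Poisson interval 0.797 to 0.900). The other autosomal regions held 1.58 counts per kb (1.57 to 1.598). In the repressed library the members held 1533 counts, or 1.22 per kb (1.16 to 1.28), against 2.18 per kb (2.16 to 2.196). The level in isolated regions was thus 0.535 times that of the others in the induced library (exact interval 0.503 to 0.568) and 0.560 times in the repressed library (0.532 to 0.589). Of the counts in scaled autosomal regions, isolated regions held 2.21% (induced) and 2.31% (repressed).

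The level changed less among the isolated regions than beyond them. With 0, 1 and 2 neighbours the induced library held 0.765, 0.893 and 0.849 counts per kb, and the repressed library 1.26, 1.20 and 1.22. The intervals of these values overlap in each library, but in the induced library this rests on 1 region. Without R06447, the member with the most counts among those scaled, members with 0 neighbours held 0.628 induced counts per kb (0.532 to 0.736). This is below the intervals at 1 neighbour (0.804 to 0.988) and at 2 (0.777 to 0.926). No member was left out of those classes, although R04573, with 17 induced counts, has 1 neighbour. The comparison is therefore uneven. Without R06447 the repressed level at 0 neighbours was 1.08 (0.955 to 1.22), which overlaps those at 1 and 2. The share of members without an induced count was 51.4%, 47.2% and 44.2% at 0, 1 and 2 neighbours, with overlapping intervals. Just outside the rule, the 495 regions with 3 neighbours held 0.906 and 1.25 counts per kb, close to the members with 2. From there the level climbed through 1.09 and 1.56 at 4 to 5 neighbours and 1.58 and 2.204 at 11 to 20. It reached 1.85 and 2.47 at 41 or more neighbours.

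**Figure D2:**
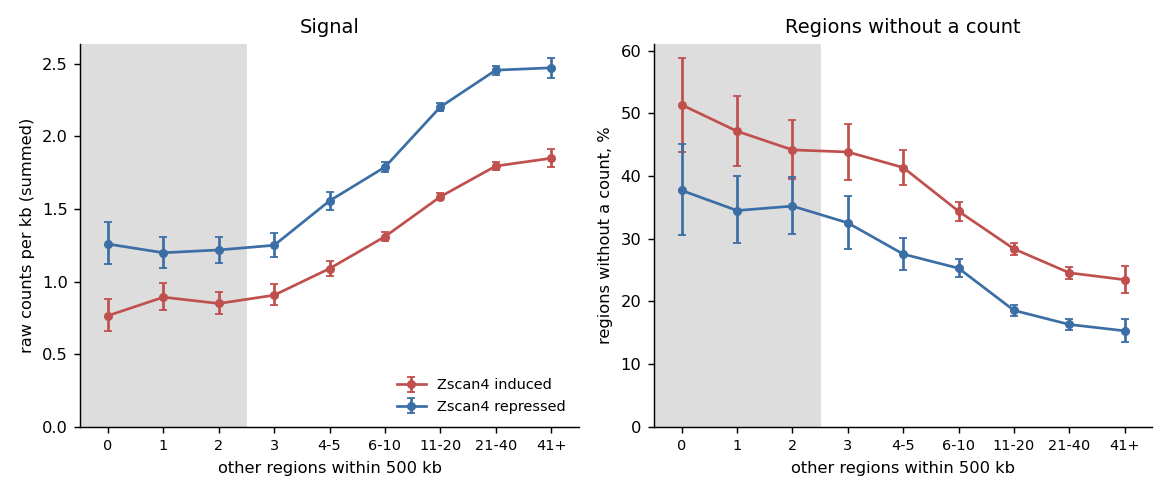
Raw counts per kb (left) and the percentage of regions without a count (right) against the number of other listed regions within 500 kb, for the induced (red) and repressed (blue) library. Bars are exact 95% intervals and the grey band marks the isolated regions; the induced signal lies between 0.765 and 0.906 at 0 to 3 neighbours (0.628 at 0 neighbours without R06447) and reaches 1.85 at 41 or more.

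The same order was found on single autosomes. In the repressed library isolated regions held fewer counts per kb than the other regions on 19 of 19 autosomes, with intervals that did not overlap on any of them. In the induced library this was so on 18 of 19, with separate intervals on 17. The exception was chromosome 14, where the members held 1.40 and the others 1.35 counts per kb in the induced library. This rests on a single member, R06447. Without it the chromosome 14 members held 1.00 count per kb, below the others. The lowest level in the induced library was on chromosome 19, with 0.242 counts per kb from 5 counts in 17 members.

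**Figure D3:**
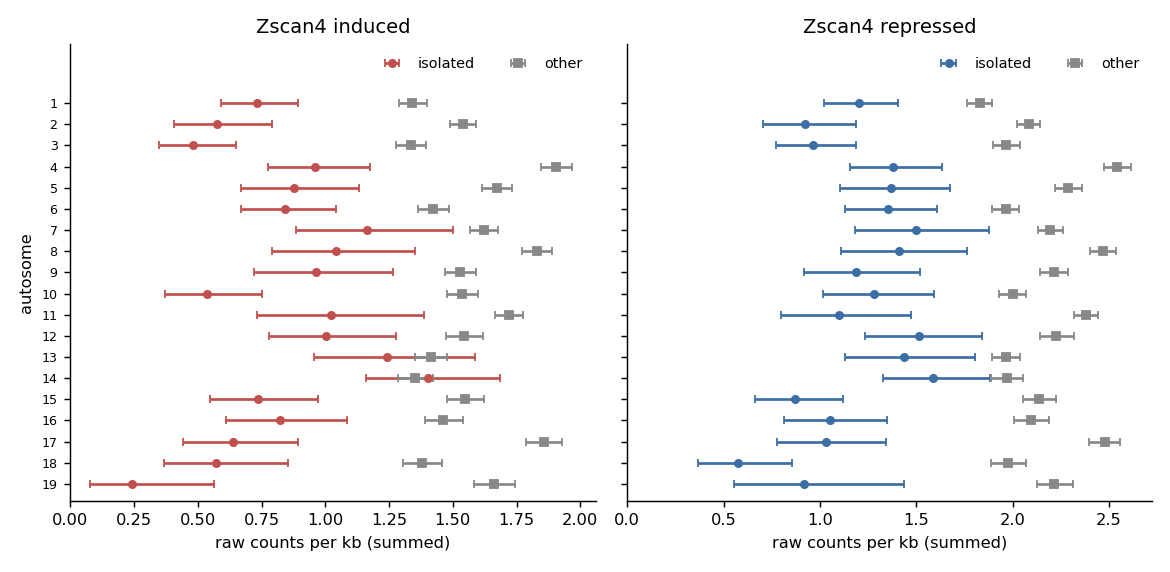
Raw counts per kb in isolated (coloured circles) and other (grey squares) regions of each autosome, induced library on the left and repressed on the right, with exact Poisson 95% intervals. Isolated regions lie to the left of the others on every autosome except chromosome 14 in the induced library (1.40 against 1.35).

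Many isolated regions had no count at all. In the induced library 440 of 945 members (46.6%, exact Clopper-Pearson interval 43.3 to 49.8) were without a count, against 28.9% of the others (28.3 to 29.5). In the repressed library the numbers were 335 (35.4%, 32.4 to 38.6) and 19.5% (19.03 to 20.1). The gap was 17.7 percentage points for induced and 15.9 for repressed counts. Neither library gave a count in 200 members (21.2%) and in 9.96% of the others. A region without a count may still hold a signal of up to 3 counts, so a count of 0 does not show that methylation is absent. The share was larger in the isolated regions on 18 of 19 autosomes for induced counts and on 19 of 19 for repressed counts. Chromosome 13 was the exception, with 10 of its 40 members without a count in the induced library, a lower share than the 34.0% of the others.

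A count in both libraries was found in 370 members (39.2%), against 61.6% of the other regions. The induced library alone had a count in 135 members (14.3%) and the repressed library alone in 240 (25.4%), against 9.58% and 18.9% of the others. Most members with a signal thus rest on very few reads. A summed count of 1 or 2 was found in 413 members, 3 to 9 in 296, 10 to 19 in 27 and 20 or more in 9 (0.952%, against 2.70% of the others). The typical member held 1 count in each library by the median, and the typical other region held 1 induced and 2 repressed counts.

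Region length did not remove the difference in signal. Among regions of exactly 1000 bp, 398 members held 1.08 induced and 1.46 repressed counts per kb, and the others 1.65 and 2.25. The members' level was 0.654 times that of the others (0.592 to 0.719) in the induced and 0.652 times (0.600 to 0.708) in the repressed library. Without R06447, which is itself 1000 bp long, these values were 0.603 and 0.605. No count was found in 52.5% of these members in the induced library, against 37.0% of the others, and in 41.5% against 26.0% in the repressed library. In regions over 1000 bp the members' level was 0.477 times (0.441 to 0.516) and 0.515 times (0.483 to 0.550) that of the others. The 41 members over 2000 bp held 0.681 and 1.07 counts per kb, against 1.43 and 1.95 in others of that length.

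A few members stood far above the rest. R06447 on chromosome 14 (6036030 to 6037030) showed 34 induced and 44 repressed counts over 1000 bp. It was also the member farthest from any listed region, with the nearest start 2605 kb away. Its scaled ratio of induced over repressed was 1.06 (0.660 to 1.70), so the libraries did not differ there beyond counting error. R18091 on chromosome 6 (53508389 to 53510385) was 1996 bp long, with 16 and 26 counts, which gave a ratio of 0.847 (0.425 to 1.64). R04573 on chromosome 12 (20232466 to 20233466) showed 17 and 20 counts, for a ratio of 1.17 (0.576 to 2.35). The neighbour of R04573, 352 kb away, held 1 and 2 counts.

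R20797 on chromosome 8 (29857381 to 29858381) held 16 and 14 counts, while its neighbour 20.8 kb away held 0 and 1. R20013 on chromosome 7 (110401430 to 110403091) held 14 and 15 counts. Its 2 neighbours held 12 and 13 counts in sum. The 10 scaled members with the highest counts (1.06% of scaled members) carried 12.4% of the counts in scaled members, which leaves out R01408. The same share of the other regions, 237 of them, carried 8.56%. Without both sets, the isolated level was 0.509 times that of the others in the induced and 0.537 times in the repressed library.

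Of the 6 members farthest from any listed region, all but R06447 held 4 counts or fewer in sum. R21647 on chromosome 8 (103932555 to 103933789) stood 1865 kb from the nearest start and held 1 and 0 counts. R12539 on chromosome 2 (97804338 to 97806482), at 1852 kb, held 0 and 1, and its next neighbour R12540 (99655867 to 99656867) also held 0 and 1. R04711 on chromosome 12 (49611965 to 49613765), at 1692 kb, held 3 and 1 counts. R18487 on chromosome 6 (104338247 to 104339247), at 1556 kb, held 1 and 0. The 30 members at 1 Mb or more held 1.73 and 2.02 counts per kb, but 0.832 and 0.860 without R06447. Without it the isolated regions as a whole held 0.821 and 1.19.

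**Figure D4:**
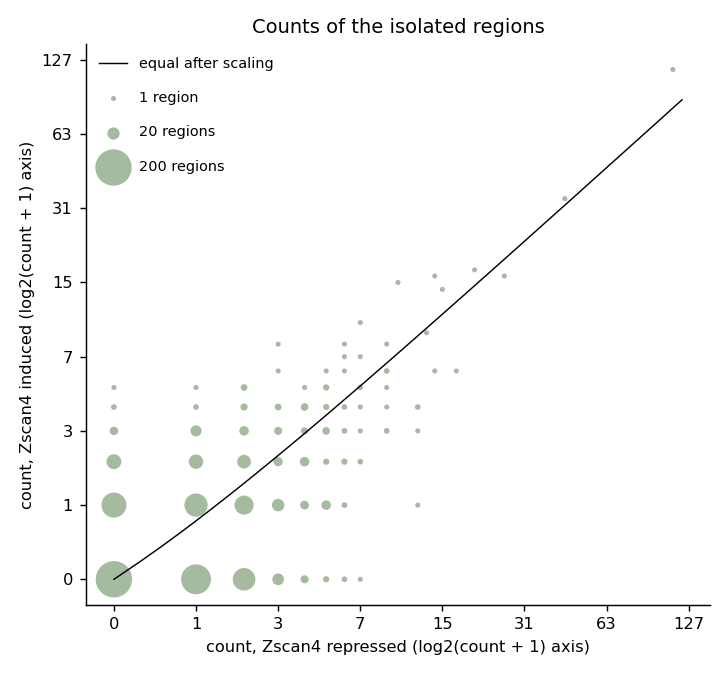
Raw count in the induced against the repressed library for the 946 isolated regions, on log2(count + 1) axes labelled with counts; the area of a point grows with the number of regions at that pair of counts. The line marks equal scaled counts; most regions lie at 0 to 3 counts in both libraries, with R06447 (34 and 44) and R01408 (116 and 111) far above.

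With the totals of both libraries set equal, the isolated regions as a group did not differ between the conditions beyond counting error. Dividing their summed induced by their summed repressed scaled counts gave 0.957 (0.884 to 1.035), and the other autosomal regions gave 1.001 (0.989 to 1.013). The former was 0.956 times the latter (exact interval 0.882 to 1.035), a value that does not depend on the scaling. The ratio itself does depend on the scaling, and was 0.695 in raw counts. Of the scaled members 393 (41.6%) were lower and 352 (37.2%) higher in the induced library. Among the others 46.1% were lower and 43.9% higher, with fewer regions empty in both libraries. Of the members with a count, 52.8% were lower, and of such other regions 51.2%.

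By 2-fold or more, on a log2 scale with a pseudocount of 1, 132 members (13.97%) were lower and 165 (17.5%) higher in the induced library. Over all 23932 scaled regions 15.6% were lower and 15.7% higher by this measure. Which direction has more members depends on the setting: a pseudocount of 0.1 gave 295 lower and 206 higher members, and unscaled counts gave 301 and 159. The excess of higher members comes with the lowest counts. With these factors 1 induced count alone is enough for 2-fold, whereas 1 repressed count alone is not. Of the 165 higher members, 93 had 1 induced count alone, while the 134 members with 1 repressed count alone are not among the lower ones. Among the 224 members with a summed count of 4 or more, 39 (17.4%) were lower and 33 (14.7%) higher. The 10806 other regions with that many counts had 16.4% and 13.6%. The shares of the isolated regions were thus close to those of the others once the sparsest regions were left out.

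No single member differed between the libraries after adjustment. An exact two-sided binomial test of each region, with Benjamini-Hochberg adjustment over 21309 scaled regions with a count, passed 3 regions (0.0141%) at a threshold of 0.05, and none of them is isolated. This is a test between reads of 2 libraries and says nothing of how replicates of a condition would vary. The test reached 745 of the 946 members, since 200 had no count and R01408 was not scaled. At an unadjusted p under 0.05 there were 7 members (0.940% of those tested), 3 higher and 4 lower, against 2.29% of the other regions. Most members tested had a summed count of 1 to 9, which limits what such a test can reach.

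Among the 36 scaled members with at least 10 counts, the induced scaled count was the higher one in 16 and the lower one in 20. Among the 2920 other regions with as many counts it was higher in 1406 and lower in 1514. The lowest was R20204 on chromosome 7 (131947804 to 131949729), with 1 induced and 12 repressed counts over 1925 bp. Its ratio was 0.115 (0.00268 to 0.776), with an unadjusted exact binomial p = 0.0108 and an adjusted p = 1. No other listed region lies within 614 kb of it. R20698 on chromosome 8 (22135742 to 22137539), also without a neighbour, showed 3 and 12 counts, for a ratio of 0.344 (0.0623 to 1.28). R15030 on chromosome 4 (49479199 to 49480436) and R16340 on chromosome 5 (14697247 to 14698758) both showed 4 and 12 counts, for a ratio of 0.459 (0.108 to 1.51). R14841 on chromosome 4 (25742445 to 25743734) showed 6 and 17 counts, for a ratio of 0.486 (0.157 to 1.29).

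The remaining lower members by size were R04548 on chromosome 12 and R08824 on chromosome 16, each with 3 and 9 counts, and R01340 on chromosome 1 with 6 and 14. Apart from R20204, the intervals of the 8 lowest members all include 1. The members were picked here by size, so their intervals are a description.

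The highest of the 36 was R14815 on chromosome 4 (20898850 to 20899850), with 8 induced and 3 repressed counts, which gave a ratio of 3.67 (0.881 to 21.5). R06762 on chromosome 14 (44040086 to 44041086) showed 15 and 10 counts, for a ratio of 2.07 (0.868 to 5.14), and R06516 on the same chromosome (16151242 to 16152631) showed 10 and 7, for a ratio of 1.97 (0.676 to 6.09). R07760 on chromosome 15 (60670814 to 60671814), which has its nearest listed region 1155 kb away, showed 8 and 6 counts, for a ratio of 1.84 (0.559 to 6.42). R20797, R23257, R10013 and R12283 made up the rest of the 8 highest, with log2 ratios between 0.40 and 0.61. All 8 intervals include 1.

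The ratio varied little among most classes of isolated regions. It was 0.837 (0.694 to 1.008) in members without a neighbour, 1.03 (0.894 to 1.17) with 1 neighbour and 0.960 (0.855 to 1.08) with 2. At 3 neighbours, just outside the rule, it was 0.998 (0.898 to 1.11). By length it ran from 1.01 (0.890 to 1.15) at 1000 bp to 0.879 (0.625 to 1.23) over 2000 bp. By summed count it was 0.889 (0.751 to 1.05) at 1 or 2 counts, 0.973 (0.871 to 1.09) at 3 to 9 and 0.988 (0.843 to 1.16) at 10 or more. The other autosomal regions had the same order in these classes, with 0.934 (0.897 to 0.972), 0.990 (0.973 to 1.007) and 1.029 (1.010 to 1.047).

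One class of distance stood lower. The 153 members with the nearest start between 500 kb and 1 Mb away had 122 induced but 231 repressed counts, for a ratio of 0.727 (0.579 to 0.910). Without the 4 of them that hold 10 or more counts it was 0.760 (0.594 to 0.969). The 30 members at 1 Mb or more went the other way, at 1.18 (0.828 to 1.66), so the ratio did not fall steadily with distance. The members without a neighbour unite these 2 classes, and without R06447 their ratio was 0.799 (0.650 to 0.979). These intervals are not adjusted for the number of classes compared, which include 5 classes of distance, and were looked at after the data were known. Across autosomes the isolated ratio was below that of the other regions on 11 of 19. Its interval excluded 1 on chromosome 10 alone, at 0.578 (0.375 to 0.873) from 34 induced and 81 repressed counts.

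**Figure D5:**
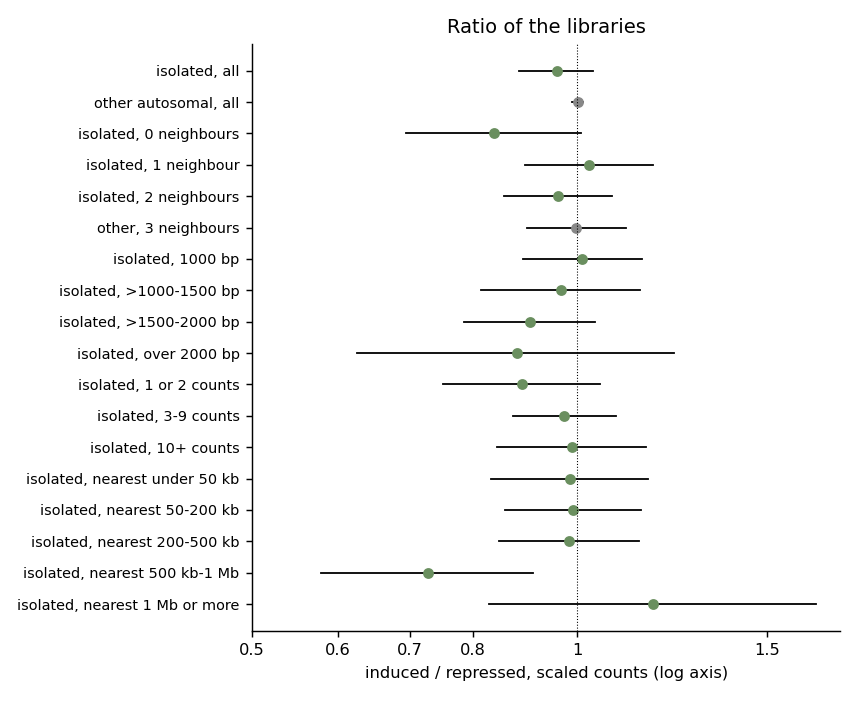
Ratio of induced to repressed scaled counts (log axis) with exact 95% binomial intervals, for isolated regions (green) by number of neighbours, length, summed count and distance to the nearest start, beside other autosomal regions (grey). Every interval shown includes 1 except that of members whose nearest start is 500 kb to 1 Mb away, at 0.727.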

How the data were processed

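The table gives a position, a raw count and an adjusted value per library for each region. Per the labels' protocols, a 5mC antibody enriched sonicated DNA, and an Illumina Genome Analyzer II read the libraries. Positions are on mm9, as the submitters' processing notes name it. Which aligner and counter were used, how duplicates were handled and how regions were picked is not given in the sources used here. Counts are raw as deposited by the authors. Their deposited adjusted signal equals the count times 1 factor per library (1.19 induced, 0.863 repressed) to within 0.0491. It is blank in 14 regions, 1 of them isolated. These stay out of sums and tests, except in the totals over all listed regions and where stated. Scaled counts here are counts times the unrounded factors, in which any change shared by all regions is lost. Starts may be off by 1 bp, since the file does not state its counting.

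The members and all lists were chosen with earlier results of these data known. Named members, on chromosomes other than 18, are the 8 with the highest summed count, the 8 highest and 8 lowest log2 ratios at 10 or more counts, the 6 farthest from a listed start, and any that passed the binomial test or had no adjusted value. Since each condition is 1 library, edgeR's test could not be fitted, with 0 residual degrees of freedom left. Intervals are Clopper-Pearson, exact Poisson or exact conditional. The procedures were tested on simulated data with known answers. For the test of single regions, changes were planted only at a summed count of 20 or more, which 9 scaled members reach. It therefore does not show what would be found in the sparser members. Alternatives covered the rule, length, overlap, scaling (edgeR's TMM, DESeq2's median of ratios), pseudocount and filters. Tools were Python 3.11.15, numpy 2.4.6, pandas 2.3.3, scipy 1.17.1, matplotlib 3.10.9, R 4.3.3, edgeR 4.0.16 and DESeq2 1.42.0.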

Additional observations from a re-analysis of the deposited data

Results flagged for a closer look

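R01408 on chromosome 1 (197067420 to 197068420) is the one isolated region whose adjusted value is blank in the table, and it lies outside the comparisons above. It held 227 counts in sum, of which 116 were induced and 111 repressed, more than any other isolated region. Its scaled ratio was 1.44 (exact binomial interval 1.10 to 1.88). This ratio depends on the scaling, whose factor quotient was 1.38 under equal totals, 1.25 under TMM and 1 without scaling. High counts were also found in other autosomal regions without an adjusted value. The highest level among the other scaled regions was 83 counts per kb in each library, and 267 (induced) and 308 (repressed) with those regions included. The 2 neighbours of R01408, the nearer 111 kb away, held 3 and 2 counts in sum. With R01408 included, the ratio of all 946 isolated regions was 0.989 (0.917 to 1.07).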

How the results depend on the processing

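Of 123 values under 21 settings, 79 stayed within the interval of the reported value (or within 1.5 times, for counts of regions) and 44 moved. A reversal could be counted only for a ratio whose reported interval excludes 1. No reported ratio met this, so none could be counted. The ratio of the isolated regions, reported as 0.957, was 1.001 with a window of 1 Mb and 1.01 at exactly 1000 bp. The signal of isolated regions was below that of the others, and their share without a count above, under each of the settings that recomputed them, 10 for the signal and 8 for the share. Scaling, pseudocounts and fold thresholds do not enter these values. With a window of 250 kb there were 2595 members. Their level per kb was 0.646 times that of the others in the induced and 0.665 times in the repressed library. Without a count were 42.0% (14.03 points above the others) and 30.5% (11.6 points), and 375 were lower and 420 higher by 2-fold. With 1 Mb there were 229 members. Their level was 0.511 times that of the others in the repressed library, 52.0% (22.6 points above) and 40.2% (20.2 points above) had no count, and 34 were lower and 45 higher. With 0 neighbours the ratio was 0.837 and its quotient to all other autosomal regions 0.836. The induced level was 0.490 times that of the others, 51.4% had no count in the induced library (22.0 points above), and 29 were lower and 32 higher. With 1 or 0 neighbours 75 were lower and 84 higher. At exactly 1000 bp the levels were 0.654 and 0.652 times those of the others (0.603 and 0.605 without R06447, an alternative added after seeing the data). There 52.5% and 41.5% had no count, and 44 were lower and 65 higher. The induced level was 0.579 times that of the others with R01408 and the other regions without an adjusted value.

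The ratio of the isolated regions was 0.869 (0.802 to 0.940) under TMM and 0.794 (0.734 to 0.859) under the median of ratios. Without scaling it was 0.695 (0.642 to 0.752). Each of these intervals excludes 1, unlike that under equal totals. All regions shift alike under these choices, by -0.14, -0.27 and -0.46 in log2. Counts by 2-fold hang on the pseudocount. With 0.1, 295 were lower and 206 higher, with 10, 0 and 0, and without scaling 301 and 159, so lower members outnumber higher ones with 0.1 and without scaling. At 4-fold 14 were lower and 11 higher, and with at least 4 counts 39 and 33. Leaving out each autosome in turn gave ratios between 0.932 and 0.978. No paired analysis was possible because each group has 1 library. At a median of 1 count, differences between the conditions in a single member are mostly below what this depth shows.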

Other observations

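Among regions with at least 10 counts, the isolated ones were shorter than the others by median and held more counts per kb. The 36 isolated regions with at least 10 counts had a median length of 1074 bp, and the 2920 other autosomal regions with as many counts had 1501 bp. Of the former 47.2% and of the latter 28.1% measured exactly 1000 bp. The isolated ones held 5.67 induced and 7.90 repressed counts per kb, against 4.69 and 6.29, the reverse of the order over all regions. Both sets were defined by their counts, so a shorter region needs more counts per kb to enter. R06447 is among the isolated ones. The comparison is thus a description with no test. Regions with at least 10 counts made up 3.81% of the isolated and 13.0% of the other regions.

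The libraries' counts followed each other less closely across the isolated regions by rank, with a Spearman rho of 0.37 against 0.52 across the others. Pearson's r was 0.75 against 0.73, and 0.66 in the isolated regions without R06447. Regions share their library and a low count range, so these values carry no p.

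The 200 isolated regions without a count in either library had a median length of 1000 bp, and 53.0% of them measured exactly 1000 bp. Of the 2230 other regions without a count 64.9% did so.

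The 26 scaled isolated regions within 3 Mb of an outermost listed region held 1.94 induced and 2.81 repressed counts per kb, above the 1.65 and 2.19 of the other regions there. Without R06447 the values were 0.869 and 1.44, below them.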
